A study of Drosophila melanogaster with 6 samples.

Results

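H/ACA box snoRNAs are small nucleolar RNAs that guide pseudouridylation, the conversion of chosen uridines of ribosomal RNA to pseudouridine. Each folds into hairpins whose internal loops pair with the rRNA on both sides of the target uridine, and works in a particle with the pseudouridine synthase dyskerin (Nop60B in the fly) and the proteins NHP2, NOP10 and GAR1. In animals most such guides lie in introns of host genes and are trimmed out of the spliced intron, so that a host gene gives both an mRNA and a guide. In the fly a guide is often present as several related copies, and its name gives the target rRNA and the target position.

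The members were chosen by name: loci of the deposited tables whose every gene begins with snoRNA:Psi. This gave 108 of 15904 loci, of which 46 guide 18S rRNA of the small ribosomal subunit and 62 guide 28S rRNA of the large subunit. The prefix snoRNA: is left off the names here. The copies fall into 53 families that share a target position, 18 for 18S and 35 for 28S rRNA. Of these families 34 have 1 locus, 19 have at least 2 and 8 have at least 4. A further locus, which joins Psi28S-2622 with the non-coding gene CR43701, was left out by the rule and stood at 348 FPKM in the RNAi group, 353 in the overexpression group and 302 in the control.

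The 6 libraries were made from rRNA-depleted total RNA of whole eye discs, 30 pairs to a library, dissected from wandering Drosophila melanogaster larvae at the end of larval life, and fall into 3 groups of 2. The RNAi group had the genotype w1118; sev-GAL4/UAS-GFP; hsromegaRNAi, the overexpression group w1118; sev-GAL4/UAS-GFP; EP3037, and the control w1118; sev-GAL4/UAS-GFP, so that the w1118 background, the driver and the GFP transgene were common to all 3. Hsromega is a long non-coding RNA around which nuclear omega speckles with hnRNP proteins form. The genotypes were meant to lower or raise it through sev-GAL4, a driver active in only some of the retinal cells. Whole discs were sequenced. The authors' tables hold 1 pooled FPKM value per locus and group (sequenced fragments per unit of transcript length and of sequencing depth), so no value has a spread over libraries, and the depth is unknown.

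The targeted RNA itself stood at 204 FPKM in the RNAi group, 376 in the overexpression group and 202 in the control, and neither difference was called, at q = 0.997 for RNAi and 0.758 for overexpression in the authors' deposited table. It therefore does not check the labels. All 10 eye disc markers were detected in every group, and all 10 were lower than the control in both treated groups, with summed levels of 213 FPKM under RNAi, 195 under overexpression and 370 in the control. Markers of other tissues differed too. The 4 salivary gland markers summed to 3141 FPKM under RNAi, 78.1 under overexpression and 42.2 in the control, and the 3 fat body markers to 84.2, 44.6 and 17.1 FPKM in the same order of groups. The 3 gut markers summed to 4.07 FPKM under RNAi, 150 under overexpression and 2.46 in the control, where each was below 1 FPKM, and the 3 muscle markers to 604, 1173 and 1239. The 3 neuron markers summed to 6.30 FPKM under RNAi, 4.95 under overexpression and 11.2 in the control, and the 3 haemocyte markers to 4.17, 5.24 and 4.85. The authors' deposited table called 3 of 4 salivary gland and 3 of 3 fat body markers higher under RNAi, 3 of 3 gut markers higher and 2 of 10 eye disc markers lower under overexpression, and 1 of 3 neuron markers lower in each treated group. The part of these tissues in the guide levels was not tested, and in RNA of whole discs fewer cells of a type cannot be told apart from less RNA per cell.

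The guides are short genes spread over the genome. Of the 108 members, 105 were found in the Ensembl annotation of the dm6 assembly, with lengths of 124 to 268 nt and a median of 140 nt. Psi28S-1936, Psi28S-2263 and Psi28S-612 had no match. There were 27 on 3R, 25 on 2R, 21 on 2L, 21 on X and 14 on 3L. Of the 105, 101 lay wholly within an intron of a host gene on the same strand, none overlapped an exon of its host, and 4 had no host, namely Psi28S-1153, Psi18S-176, Psi18S-301 and Psi28S-3342. The 26 host genes included 13 ribosomal protein genes with 41 guides, while the other 13 hosts held 60. The largest arrays were those of Arpc2, a subunit of the actin-nucleating complex, with 17 guides in 3716 nt (chromosome 2L, 20418348 to 20422063), RpS5a with 14 guides in 2826 nt (chromosome X, 17143934 to 17146759) and dom, a chromatin remodelling ATPase, with 12 guides in 7561 nt (chromosome 2R, 21326739 to 21334299). The translation regulator gene kra held 8, and RpS7 and Hrb98DE held 7 each, Hrb98DE being an hnRNP of the kind found in Hsromega speckles.

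The guides included some of the highest FPKM values of these libraries and spanned several orders of magnitude. Their FPKM values summed to 19.3% of the summed FPKM of all loci in the RNAi group, 19.1% in the overexpression group and 15.2% in the control. The median guide stood at 254 FPKM under RNAi, 265 under overexpression and 151 in the control. By comparison the median of all loci was 2.36, 2.37 and 2.68 FPKM in the same order. High values were not particular to these guides. The 58 snoRNA loci named as neither H/ACA nor C/D box guides had medians of 296, 250 and 274 FPKM. They held 13.4%, 12.5% and 10.4% of summed FPKM in the same order. The 83 C/D box guides had medians of only 7.27, 14.7 and 19.8 FPKM. There were 26 guides at 1000 FPKM or more under RNAi, 25 under overexpression and 21 in the control. At the other end 3 were listed at 0 under RNAi, 4 under overexpression and 6 in the control. The 18S guides had the higher sums, 156585 FPKM under RNAi, 160475 under overexpression and 89440 in the control, but the lower medians, 171, 207 and 128 FPKM. For the 28S guides the sums were 76157 FPKM under RNAi, 77380 under overexpression and 44452 in the control, and the medians 283, 328 and 173 FPKM.

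**Figure D1:**
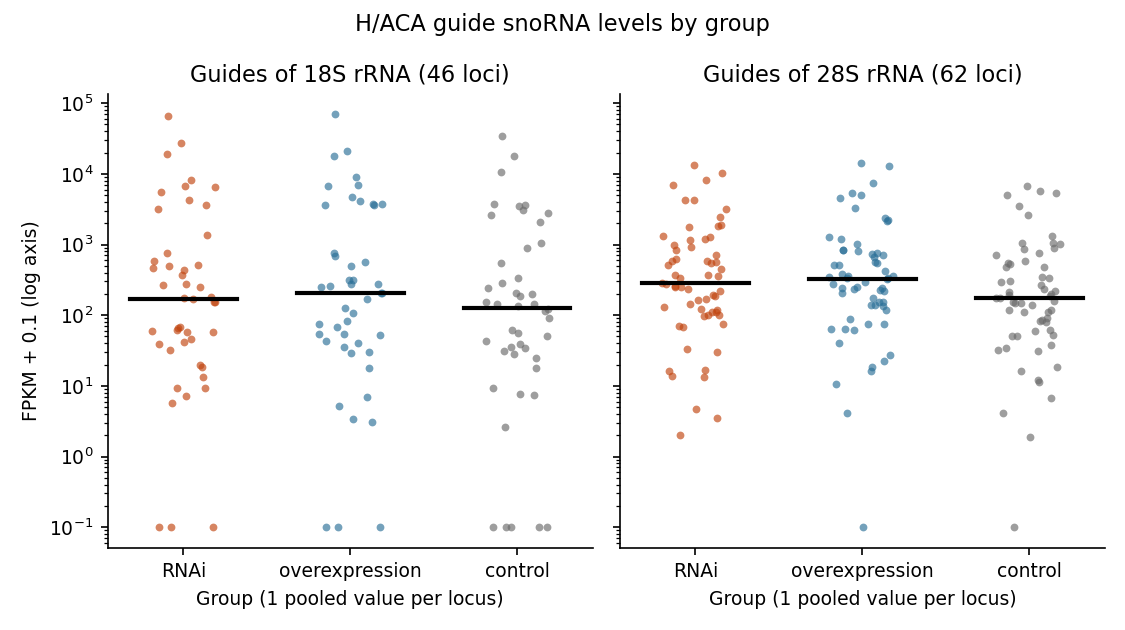
FPKM (plus 0.1, log axis) of each guide of 18S rRNA (left) and 28S rRNA (right) in the RNAi, overexpression and control groups; each point is the pooled value of 1 locus and the bar is the median. Both medians are higher in the treated groups than in the control, and the ranges overlap almost completely; points at 0.1 are loci listed at 0.

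The class was dominated by a few guides, with Psi18S-1820 far above the others. Psi18S-1820, which lies in an intron of Nop60B, the gene of the pseudouridine synthase itself (chromosome 2R, 24176228 to 24176367, plus strand), stood at 65267 FPKM under RNAi, 69985 under overexpression and 33982 in the control. This was the highest value of any locus in each group and made up as much as 29.4% of all guide FPKM, under overexpression, against 25.4% in the control. It was 1.92-fold higher than the control under RNAi and 2.06-fold higher under overexpression, and neither difference passed the test (p = 0.323 and p = 0.259 in the authors' deposited table). The Nop60B locus, which in the tables is joined with 6 C/D box snoRNAs, did not share this difference, at 312 FPKM under RNAi, 214 under overexpression and 323 in the control.

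The next most abundant guides in the control were copies in ribosomal protein genes. Psi18S-1377d, in RpS7 (chromosome 3R, 30207156 to 30207291, minus strand), stood at 27102 FPKM under RNAi, 20801 under overexpression and 18148 in the control. Psi18S-1854c, in RpS5a (chromosome X, 17145210 to 17145349, minus strand), had 18825, 17785 and 10607 FPKM in the same groups. Psi28S-1175c, in RpS16, had 13449 FPKM under RNAi, 14276 under overexpression and 6793 in the control. All 3 were higher than the control in both treated groups. The remaining guides of the first 6 were Psi28S-1192a in RpS5a, at 8168, 7409 and 5695 FPKM under RNAi, overexpression and control, and Psi28S-291 in RpL3, at 10452, 13092 and 5340 FPKM. These 6 together held 61.6% of guide FPKM under RNAi, 60.3% under overexpression and 60.2% in the control, so that their joint share hardly differed between groups.

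Most guides were higher under RNAi than in the control, by a moderate and similar factor. Of 106 guides that reached 1 FPKM in the RNAi group or the control, 97 were higher under RNAi. Of all loci that passed this filter 47.1% were higher, and of other loci of 120 to 170 nt 72.2%. The median log2 fold of the guides, taken on FPKM + 0.1, was 0.76, with an interquartile range of 0.40 to 1.09. The median of all loci was -0.04. A difference of at least 1.5-fold upward was found in 64 guides and downward in 5, against 11.3% and 22.6% of all loci. Among 54 other loci of 120 to 170 nt, 23 were at least 1.5-fold higher and 10 at least 1.5-fold lower. With groups scaled to equal summed FPKM, a setting chosen after seeing the data, the guide counts were 31 and 7. They compare with 3.81% and 43.9% of all loci, and with 9 and 14 of the 54 other short loci. None of the guides passed the authors' test at q of 0.05 or less, where 0.822% of tested loci did (0.212% as higher). None had an unadjusted p of 0.05 or less, where 4.5% of loci did, and the smallest p in the authors' deposited table was 0.153. The 28S guides had a median log2 fold of 0.78 with 58 of 62 higher, and the 18S guides 0.60 with 39 of 44 higher, a difference that was not tested.

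The single guides furthest above the control under RNAi were mostly low ones. Psi18S-640g, in Arpc2, stood at 38.7 FPKM under RNAi, 42.6 under overexpression and 9.12 in the control, a log2 fold of 2.08 under RNAi. Psi28S-3405c and Psi28S-3305a, both in Hrb98DE, had 75.8 and 128 FPKM under RNAi, 27.1 and 64.3 under overexpression, and 18.4 and 31.6 in the control. Psi28S-1232, in RpL17, stood at 15.9 FPKM under RNAi, 10.5 under overexpression and 3.97 in the control, and Psi28S-1135e, in RpS5a, at 96.3, 140 and 30.8. These 5 guides were above the control in both treated groups. The remaining one of the 6 with the largest fold, Psi28S-1837b at a log2 fold of 1.91 under RNAi, was below the control under overexpression, at 702 FPKM under RNAi, 135 under overexpression and 187 in the control. The guides furthest below the control under RNAi were Psi18S-1377b at a log2 fold of -2.40, Psi28S-612 at -1.35, Psi28S-2949 at -0.96, Psi18S-525h at -0.88, Psi18S-525k at -0.44 and Psi28S-3305b at -0.34.

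Under overexpression the guides stood above the control to a like extent. Of 106 that passed the filter, 95 were higher, against 51.8% of all loci and 69.1% of other loci of 120 to 170 nt. The median log2 fold of the guides was 0.85, with an interquartile range of 0.41 to 1.21, and the median of all loci was 0.03. There were 73 guides at least 1.5-fold higher and 6 at least 1.5-fold lower, against 15.4% and 23.2% of loci. Among 55 other loci of 120 to 170 nt, 25 were at least 1.5-fold higher and 14 at least 1.5-fold lower. With groups scaled to equal summed FPKM the guide counts were 34 and 9. They compare with 3.52% and 43.3% of all loci, and with 12 and 16 of 54 other short loci. The 28S guides had a median of 0.96 with 56 of 62 higher and the 18S guides 0.75 with 39 of 44 higher. Both comparisons use the same control values, so they are not independent of each other. Overexpression set against RNAi, where neither group is the control, gave a median log2 fold of 0.10, with 62 of 106 guides higher (54.1% of all loci) and 20 at least 1.5-fold higher against 17 at least 1.5-fold lower, compared with 8.68% and 6.98% of all loci.

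Only Psi28S-3342 among the guides passed the authors' test under overexpression, where 1.2% of tested loci did (0.132% as higher), and it was also the 1 guide with an unadjusted p of 0.05 or less, where 6.16% of loci had one. This guide of 28S rRNA has no host gene (chromosome X, 5524302 to 5524465, minus strand). It stood at 1759 FPKM under RNAi, 3247 under overexpression and 1060 in the control. Its 3.06-fold higher level under overexpression had p = 0.00385 and q = 0.0487 in the authors' deposited table, just inside the threshold, and its 1.66-fold higher level under RNAi had p = 0.219 and q = 0.663. With Benjamini-Hochberg adjustment recomputed over the tested loci of the authors' deposited table its adjusted p was 0.329. Of all loci 0 were then called under overexpression, against 136 at the authors' q. The call of this guide, like the others, therefore rests on the authors' adjustment.

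The deposited statistics of most guides were small for the size of their folds. Dividing the log2 fold by the deposited statistic gives the error the test implies, called the implied SE here. Its median over the guides was 9.16 on the log2 scale for RNAi and 7.93 for overexpression, from the authors' deposited tables. Over all loci it was 1.03 in each comparison. For RNAi and overexpression it was 2.94 and 2.75 in other loci of 120 to 170 nt, and 7.68 and 6.94 in C/D box guides. High values were thus not particular to the H/ACA guides. The same 5 guides had an implied SE under 1.5 in both comparisons, Psi18S-1820, Psi18S-176, Psi28S-2566, Psi18S-301 and Psi28S-3342, and 3 of these have no host gene. The deposited p does not follow the statistic closely, since Psi18S-640g had a statistic of 0.139 and p = 0.347 under RNAi in the authors' deposited table, so the smallest difference the test could call is uncertain. The absence of calls does not show that the guides were unchanged.

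The 4 guides without a host gene all stood above the control in both treated groups. Psi18S-176, at 5532 FPKM under RNAi, 6678 under overexpression and 3688 in the control, was the most abundant of them. Psi18S-301 had 178 FPKM under RNAi, 279 under overexpression and 116 in the control, and Psi28S-1153 had 16.8, 18.5 and 11.1. Their log2 folds lay between 0.58 and 0.73 under RNAi and between 0.72 and 1.61 under overexpression. Of other loci of 120 to 170 nt, 72.2% were higher than the control under RNAi and 69.1% under overexpression. The part of intron origin in the guide levels was not tested.

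Other short loci also stood above the control at the median. The 54 other loci of 120 to 170 nt that passed the filter had a median log2 fold of 0.52 under RNAi, and 55 such loci had 0.56 under overexpression. Above 300 nt the median was lower in each longer class. Under RNAi it was 0.44 for loci of 300 to 500 nt, 0.05 for 1200 to 2000 nt and -0.70 above 4000 nt. Under overexpression the medians of the same length classes were 0.63, 0.15 and -0.87. The summed FPKM of all loci was 1.37 times that of the control under RNAi and 1.41 times under overexpression. When every group was scaled to the same sum, the guides' median log2 fold was 0.31 under RNAi with 73 of 106 higher, and 0.36 under overexpression with 75 of 106 higher. The median of all loci was then -0.50 and -0.48, with 15.9% and 19.0% of loci higher. The other loci of 120 to 170 nt then had medians of 0.07 and 0.05, with 53.7% higher in each comparison. The part of transcript length in the guides' values was not tested on libraries, since the tables hold none.

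**Figure D2:**
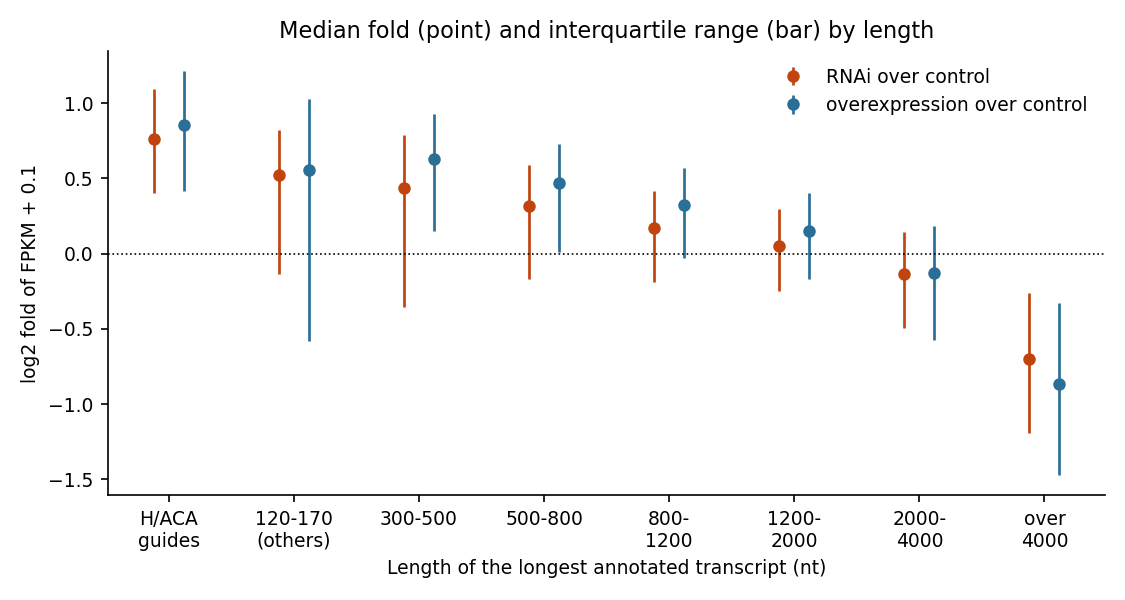
Median log2 fold of FPKM + 0.1 (points) and the interquartile range of loci (bars) for H/ACA guides, other loci of 120 to 170 nt and longer single-gene loci by length of the longest transcript, for RNAi over control and overexpression over control. The guides have medians of 0.76 and 0.85, the other loci of their length 0.52 and 0.56, and loci above 4000 nt -0.70 and -0.87.

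Other small nucleolar and Cajal body RNAs also stood above the control at the median, with C/D box snoRNAs spread more widely. C/D box snoRNAs, which guide 2'-O-methylation of the same rRNAs, had a median log2 fold of 0.90 under RNAi over 57 of 83 loci that passed the filter, but the interquartile range ran from -2.93 to 1.67 and 37 were higher. Under overexpression 59 C/D guides had a median of 0.59, with an interquartile range of -1.28 to 2.04 and 38 higher. Of the C/D loci 40 were listed at 0 under RNAi, 38 under overexpression and 35 in the control. The small Cajal body RNAs, which guide the modification of spliceosomal RNAs, had a median of 0.63 under RNAi, with an interquartile range of 0.28 to 0.84 and 11 of 12 loci higher. Under overexpression their median was 0.68, with an interquartile range of 0.29 to 1.15 and 11 of 13 higher. The 4 H/ACA snoRNAs whose names mark them as orphans, with no target in the name, had medians of 0.68 and 1.07 and were all higher in both treated groups. These spreads were not tested against each other.

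**Figure D3:**
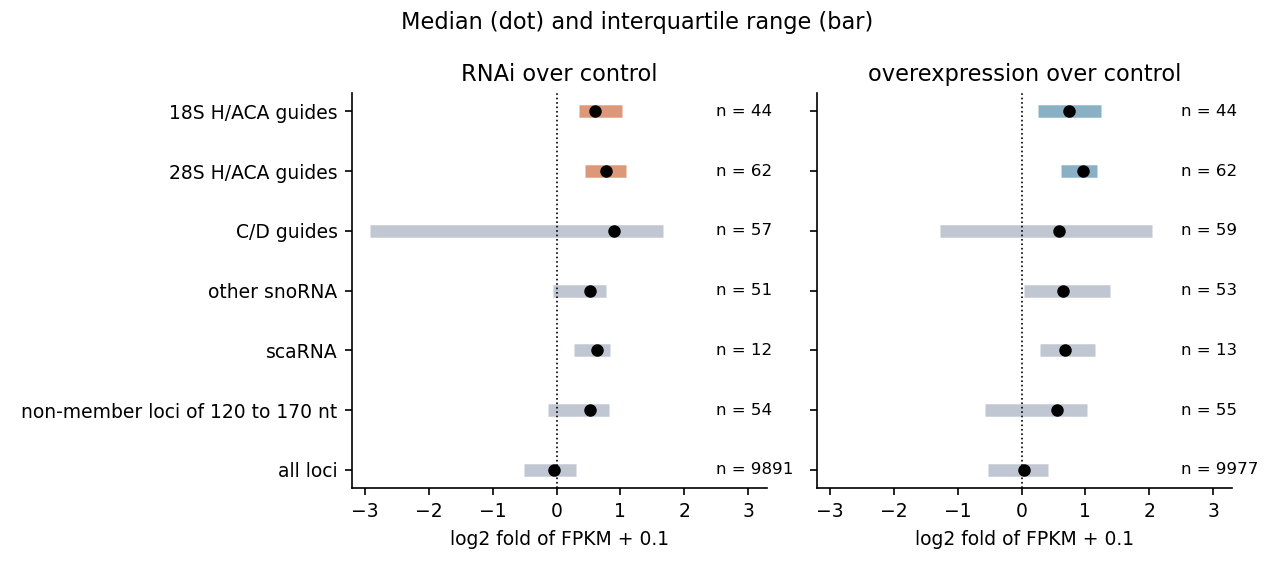
Median (dot) and interquartile range (bar) of the log2 fold of FPKM + 0.1 for 18S and 28S H/ACA guides and for 5 other sets of loci, RNAi over control (left) and overexpression over control (right), with the number of loci that passed the filter. The bars of the H/ACA guides lie above 0 in both panels, while that of the C/D guides runs from -2.93 to 1.67 under RNAi.

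Within many families, copies of a guide differed widely in level in the control. In 13 of the 17 families with at least 2 copies and none at 0 in the control, the highest copy exceeded the lowest in the control by a larger factor than the family sums differed between either treated group and the control. The other 4 families were Psi18S-1389, Psi28S-3091, Psi28S-3385 and Psi28S-3436, each of 2 copies, where the control copies lay within 1.07-fold to 1.77-fold of each other. These are unlike measures, since a range grows with the number of copies while a sum averages over them. In the Psi28S-1192 family of RpS5a, copy a held 91.1% of the family's FPKM under RNAi, 90.2% under overexpression and 93.5% in the control, and copy d of the same array had 13.4, 16.1 and 12.2 FPKM. In the Psi28S-1135 family, also in RpS5a, copy c held 83.4%, 82.9% and 85.2% in the same order of groups. In other families the share of the highest copy differed more between groups. It was 75.3% under RNAi, 62.1% under overexpression and 76.2% in the control for Psi18S-1377, and 47.2%, 60.5% and 47.5% for Psi28S-3405. Of 19 families with at least 2 copies, the summed FPKM of 19 was higher than the control under RNAi, at a median log2 ratio of 0.82, and of 17 under overexpression, at 0.97.

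The family sums of the 8 largest families were above the control in both treated groups. The 5 copies of Psi28S-3316, in dom, summed to 1429 FPKM under RNAi, 1502 under overexpression and 767 in the control, and each copy was higher in both treated groups. The 4 copies of Psi18S-841, interleaved with them in dom, summed to 1175, 1412 and 708 FPKM, again with each copy higher. The 4 copies of Psi28S-3405, in Hrb98DE, summed to 1219 FPKM under RNAi, 1100 under overexpression and 561 in the control, 2.18-fold and 1.96-fold higher. The Psi28S-1192 copies summed to 8961, 8210 and 6089 FPKM, and the Psi28S-1135 copies to 5083, 6528 and 4071.

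Among the 8 families of at least 4 loci, the 2 with the most copies had the lowest sums. The 11 copies of Psi18S-525, 10 of them in Arpc2 and 1 in Msp300, a nuclear-envelope spectrin-repeat gene, summed to 336 FPKM under RNAi, 368 under overexpression and 251 in the control. The 7 copies of Psi18S-640, also in Arpc2, summed to 210, 332 and 145 FPKM. The highest copy of both families in any group was Psi18S-640b, at 128 FPKM under overexpression. Psi18S-525b and Psi18S-640a were listed at 0 in every group. Psi18S-640c stood at 9.16 FPKM under RNAi and 34.8 under overexpression and was listed at 0 in the control, Psi18S-525d at 9.21 and 2.94 against 0, and Psi18S-640e at 5.55 and 5.11 against 0. Psi18S-525c was listed at 0 in both treated groups and stood at 2.56 in the control. The sources used here do not say how fragments were divided between such similar copies, and the values of single copies are less certain than the family sums.

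**Figure D4:**
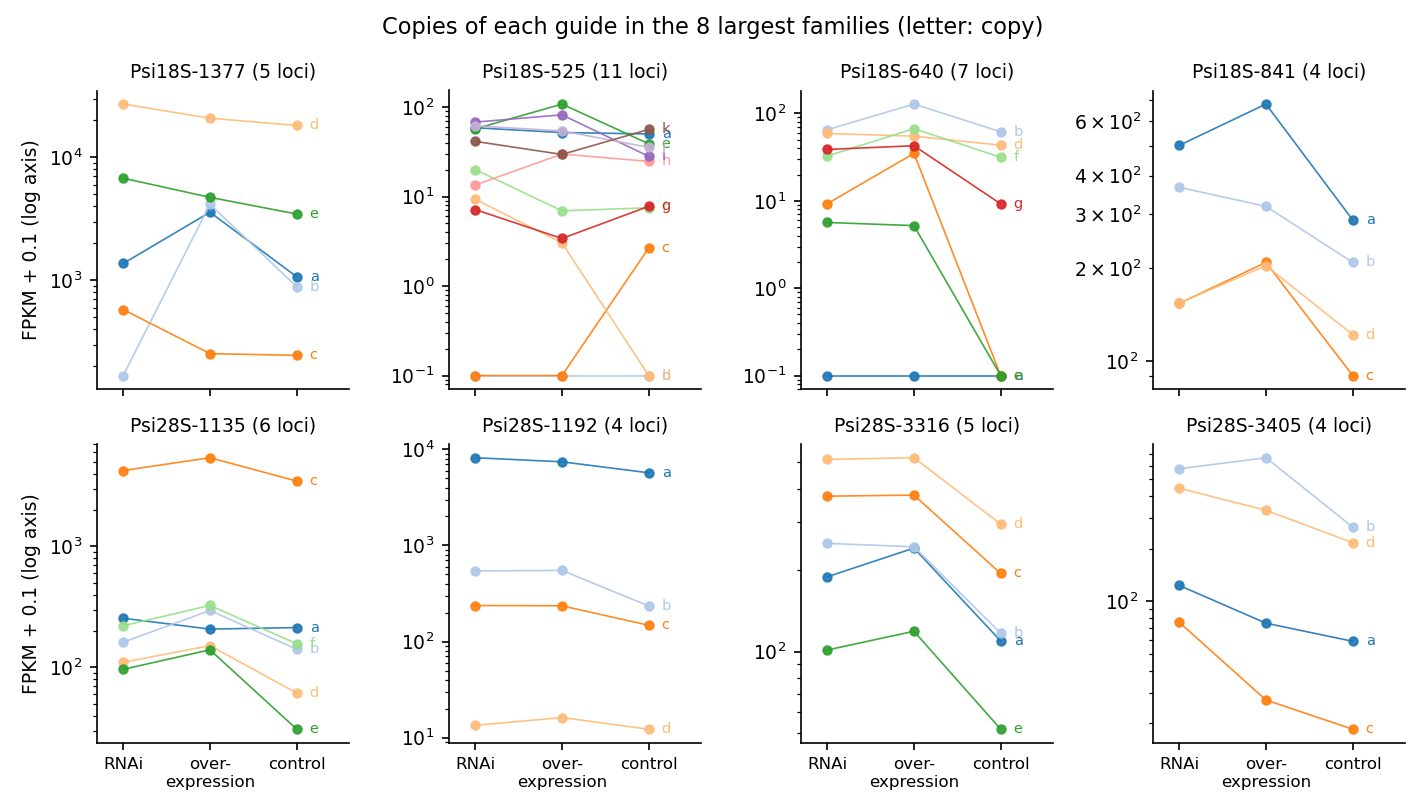
FPKM (plus 0.1, log axis) of every copy in the 8 guide families with at least 4 loci, in the RNAi, overexpression and control groups; a line joins the 3 values of 1 copy, marked by its letter, and points at 0.1 are listed at 0. Some copies change rank between groups. Copy k of Psi18S-525 is the highest of its family in the control (56.1) but not under RNAi (41.3) or overexpression (29.5). Copy b of Psi18S-1377 is low under RNAi (168) and high under overexpression (4147) against the control (886).

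A few guides stood on opposite sides of the control in the treated groups. Psi18S-1377b, in RpS7 (chromosome 3R, 30207493 to 30207630, minus strand), had 168 FPKM under RNAi, 4147 under overexpression and 886 in the control. Its neighbour Psi18S-1377a had 1369, 3577 and 1067 FPKM, and copy c had 578, 253 and 245, so the copies of this array did not all differ from the control in the same direction. The sum of the 5 Psi18S-1377 copies was nevertheless 35978 FPKM under RNAi, 33504 under overexpression and 23802 in the control, higher in both treated groups by 1.51-fold and 1.41-fold. For Psi18S-1377b the authors' deposited table gives p = 0.374 for RNAi and p = 0.278 for overexpression, with implied SEs of 20.0 and 8.19.

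The Psi28S-1837 guides of CG10576 had the reverse pattern. Psi28S-1837a (chromosome 3L, 5764258 to 5764394, minus strand) stood at 3169 FPKM under RNAi, 361 under overexpression and 1024 in the control. Copy c had 1185, 731 and 750 FPKM, and copy b, described above, was also higher under RNAi and lower under overexpression. The family sum was 2.58-fold higher than the control under RNAi and, under overexpression, 0.626 times the control. The fourth guide of this host, Psi18S-1397, was level at 18.6 FPKM under RNAi, 17.8 under overexpression and 17.8 in the control, and CG10576 itself at 178, 184 and 188 FPKM. Psi18S-1295, in RpS20, was likewise at 461 FPKM under RNAi, 75.5 under overexpression and 154 in the control. Psi28S-2949, whose host Uhg4 is a non-coding snoRNA host gene, was at 3.39, 22.0 and 6.58 FPKM. None of these differences passed the authors' test.

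Of 106 guides 62 stood higher under overexpression than under RNAi. Further examples of these were Psi18S-1377a, above, and Psi28S-2442a in kra, at 32.7 FPKM under RNAi, 61.9 under overexpression and 16.2 in the control. Psi18S-531 in RpL22, an example chosen after its values were seen, was at 4262, 9158 and 3095 in the same order. Among the 11 guides below the control under overexpression were Psi18S-525g at a log2 fold of -1.22, Psi18S-525k at -0.93 and Psi28S-2442b at -0.17. Psi28S-2442b is the abundant copy of its pair, at 6924 FPKM under RNAi, 4499 under overexpression and 5074 in the control.

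Guides and their host loci often stood differently to the control. The guides are short and medians were lower in longer classes of loci, as given above. The part of host length in these differences was not tested. Over the 26 hosts the median log2 fold of the host locus was 0.03 under RNAi and 0.20 under overexpression, and the median fold of its guides exceeded that of the host in 22 of 26 hosts under RNAi and in 20 of 26 under overexpression. Among the 20 hosts whose locus is not joined with other genes this held for 16 and 15. Ribosomal protein hosts were themselves above the control, at medians of 0.29 under RNAi and 0.48 under overexpression, and the other 13 hosts below it, at -0.44 and -0.50. The guides in ribosomal protein genes had medians of 0.67 and 0.86 and those in other hosts 0.80 and 0.84, so they differed much less than their hosts did. No host passed the authors' test, the smallest q in the authors' deposited tables being 0.197 under RNAi and 0.0947 under overexpression. The share of all tested loci that passed was 0.822% under RNAi and 1.2% under overexpression.

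Several hosts stood well below the control while their guides stood above it. Single-gene loci above 4000 nt also stood below the control at the median, at log2 folds of -0.70 under RNAi and -0.87 under overexpression. The dom locus, joined with 2 other small RNA genes, stood at 17.6 FPKM under RNAi, 15.4 under overexpression and 47.7 in the control, whereas all 12 of its guides were higher than the control in both treated groups and summed to 3957, 4495 and 2194 FPKM. The chromatin gene tou stood at 10.7 FPKM under RNAi, 7.71 under overexpression and 43.8 in the control, and its guide Psi28S-1180 at 1312, 1281 and 720. Hrb98DE stood at 43.7 FPKM under RNAi, 37.4 under overexpression and 74.0 in the control, and its 7 guides summed to 1548, 1413 and 712. In RpS5a host and guides both stood above the control, with the host at 3082, 3442 and 2245 FPKM and its 14 guides at a summed 37598, 37336 and 23596. RpL3, a ribosomal protein host joined with a C/D snoRNA, stood at 1155 FPKM under RNAi, 574 under overexpression and 1476 in the control, where its guide Psi28S-291 was higher in both treated groups. Msp300 was lower in both treated groups, and its guide Psi18S-525k was also below the control, at 41.3 FPKM under RNAi, 29.5 under overexpression and 56.1 in the control. Fragments of unspliced host introns would also be counted at a guide, and the tables do not separate them.

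**Figure D5:**
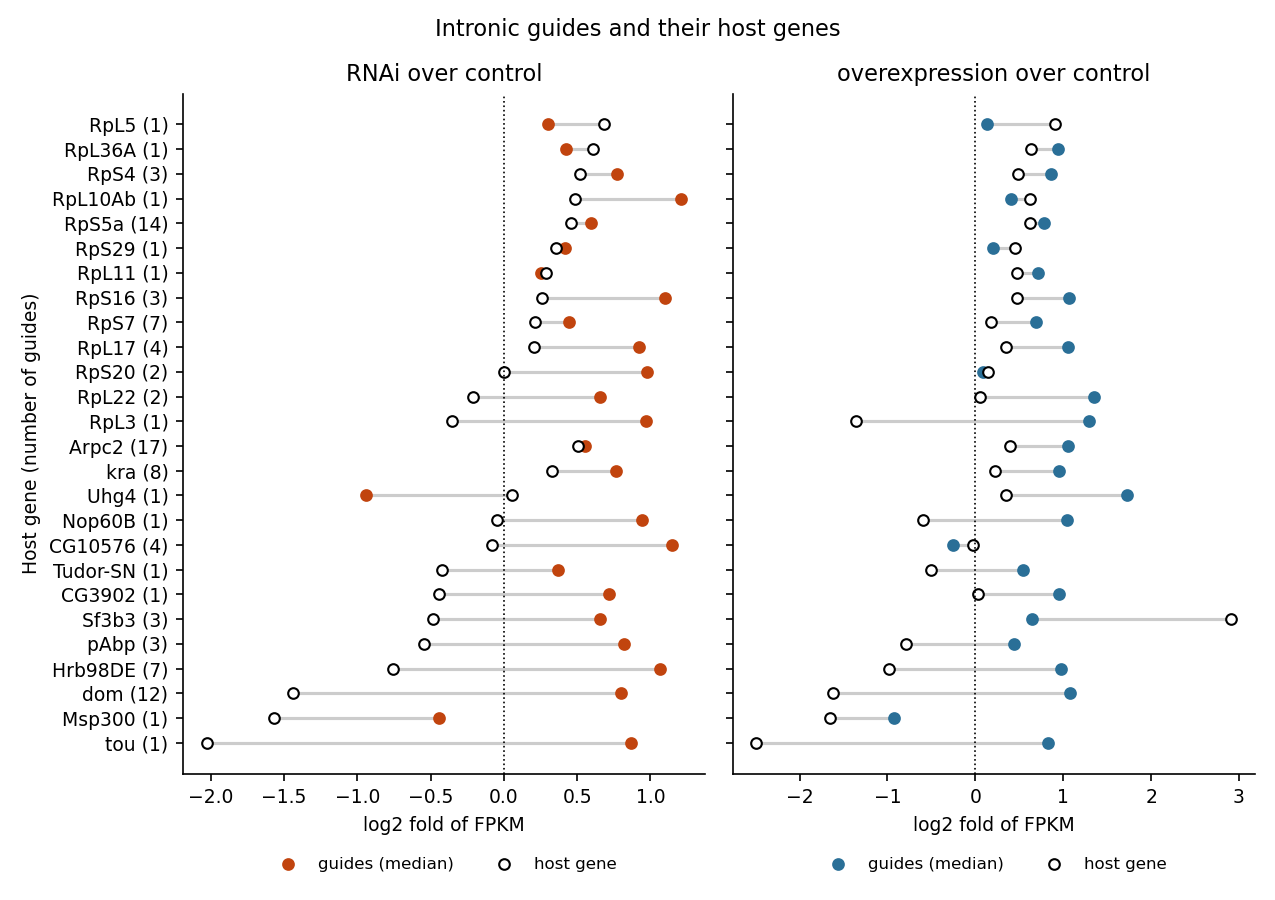
Log2 fold of FPKM + 0.1 of each host gene (open circles) and the median of the guides in its introns (filled circles; number of guides in brackets), RNAi over control (left) and overexpression over control (right), with ribosomal protein hosts at the top. The guides lie to the right of their host in 22 of 26 hosts under RNAi and in 20 of 26 under overexpression, with the widest gap at tou.

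Genes of the guide particle stood on both sides of the control. Of 9 core and assembly genes of the H/ACA particle none passed the authors' test in either comparison, with a smallest q of 0.484 for RNAi and 0.586 for overexpression in the authors' deposited tables. Of all tested loci only 0.822% passed under RNAi and 1.2% under overexpression, so the absence of calls among 9 genes says little about them. NHP2, a core protein, stood at 134 FPKM under RNAi, 134 under overexpression and 89.1 in the control. The NOP10 gene CG7637 had 191, 266 and 183 FPKM. The GAR1 gene CG4038 was at 7.41 FPKM under RNAi, 8.26 under overexpression and 19.2 in the control, and Nopp140, a nucleolar chaperone of snoRNA particles, at 16.2, 10.5 and 30.1. The assembly ATPases pont and rept were close to the control, at 46.3, 49.1 and 43.3 FPKM for pont and 36.3, 35.5 and 40.9 FPKM for rept. The 9 genes summed to 765 FPKM under RNAi, 737 under overexpression and 753 in the control.

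None of 4 stand-alone pseudouridine synthases, which need no guide RNA, and none of 4 core proteins of the C/D particle was called. Of all tested loci 0.822% were called under RNAi and 1.2% under overexpression. The synthases summed to 25.2 FPKM under RNAi, 24.3 under overexpression and 25.7 in the control. Fib, the methyltransferase of C/D particles, was at 20.4 FPKM under RNAi, 22.3 under overexpression and 49.5 in the control, while hoip, a protein that binds C/D box RNAs, was at 150, 196 and 136.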

How the data were processed

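Eye disc RNA was sequenced as 50 nt paired reads with a stranded, rRNA-depleting total RNA kit, per the labels' protocols. The submitters' processing notes name Cuffdiff 2.1.1, Cufflinks, Bowtie and TopHat with genome build dm6; the sources used here give neither the other versions nor the annotation. The authors deposited 2 tables of 15904 loci with 1 FPKM per group pooled over 2 libraries, a test statistic (a score: log2 ratio over its error), a p-value and a q-value, per the file headers. The control FPKM of both tables were identical. With no value per library, depth is unknown, and no spread, limma fit or left-out library was possible. Nothing says that libraries came from separate cultures, so the authors' p may measure technical spread.

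Here, a locus was called at the authors' q of 0.05 or less. Folds of single loci used FPKM without a pseudocount. List medians used log2(FPKM + 0.1), which understates changes of low loci, over loci with FPKM of 1 or more in a group of the comparison. Counts and medians of the members stand beside those of all loci, with no set test. Coordinates, lengths and introns came from Ensembl 115 (dm6, 1-based). The text names called members, the 6 highest in the control, up to 6 per direction and comparison with the largest fold (at least 5 FPKM in 1 of the groups, no value of 0), families of at least 4 loci, members listed at 0, host genes and particle genes. Members and lists were chosen with earlier results of these data known. Medians and adjustment were tested on simulated data. Python 3.11.15, pandas 2.3.3 and numpy 2.4.6 were used.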

Additional observations from a re-analysis of the deposited data

How the results depend on the processing

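No paired analysis was possible because each group has 1 pooled value per locus, and for the same reason the planned fits without 1 library were not run. Over 72 alternative values of the 6 medians (all guides, 18S and 28S, in each comparison) every median stayed above 0, between 0.080 and 0.96, and 54 lay within 0.1 of the reported value, a tolerance used because no replicate spread exists. The other 18 follow, most from settings chosen after seeing the data. With groups scaled to equal summed FPKM the medians for all, 18S and 28S guides were 0.31, 0.15 and 0.33 under RNAi and 0.36, 0.25 and 0.46 under overexpression. Minus the median of other loci of 120 to 170 nt they were 0.24, 0.080 and 0.26 under RNAi and 0.29, 0.19 and 0.40 under overexpression. In families of 1 locus only they were 0.60 for all and 0.66 for 28S guides under RNAi, and 0.54 for 18S and 0.83 for 28S guides under overexpression. Without the 36 lowest guides by mean FPKM the 18S median under RNAi was 0.78, where the 28S median stayed within the tolerance at 0.76. With each family counted once, a planned setting, the 28S median under overexpression was 0.86. The 1 call under overexpression became 0 with Benjamini-Hochberg recomputed and 0 with p from the test statistic. Over all loci the 136 calls of this comparison became 0 and 11 in the same settings, so the loss was not particular to this guide. The cause was not tested. The depth is unknown, so the smallest detectable difference could not be given.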
